A study of Mus musculus with 16 samples.

Results

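Chemoattractant receptors were read out in mouse blood neutrophils as 10 genes of the count table: the chemokine receptors Cxcr2, Cxcr4 and Ccr1, the chemokine-receptor-like gene Ccrl2, the formyl peptide receptors Fpr1 and Fpr2, the complement receptors C5ar1 and C3ar1, the leukotriene B4 receptor Ltb4r1 and the platelet activating factor receptor Ptafr. They were chosen by gene symbol out of 23337 genes in the table, with earlier results of these data known. Of the 10, 9 had enough counts to be tested, the exception being C3ar1. In libraries labelled stimulated, Ccrl2, Ptafr, Ccr1 and Fpr2 were higher than in libraries labelled unstimulated, by 5.72-, 2.61-, 2.21- and 1.97-fold in control neutrophils (n = 4 against 3) and by 3.97-, 2.49-, 2.09- and 1.98-fold in LTβR-deficient neutrophils (n = 5 against 4). In LTβR-deficient neutrophils an index in the library titles coincides with the treatment label. With that index as a covariate, 0 members passed there. In control neutrophils, where 1 of 3 unstimulated libraries shares the index of the stimulated ones, the covariate left 3 members passing and lost Fpr2. No member passed the test between genotypes.

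Most of these receptors are heptahelical proteins that couple to inhibitory G proteins. A ligand gradient across the cell surface activates phosphoinositide 3-kinase and Rac at the front of the neutrophil, and the cell crawls towards the source. Neutrophils use chemokine and lipid receptors to leave the vessel and follow other neutrophils, and formyl peptide and complement receptors to reach bacteria and damaged tissue, while kinases and arrestins switch off an occupied receptor.

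The series held 16 libraries of RNA from neutrophils that were negatively selected with magnetic beads from the blood of 8 week old C57/Bl6 mice. LTβRΔN mice carried floxed Ltbr alleles (Ltbr fl/fl) and Mrp8-Cre, a transgene in which an S100A8 promoter drives Cre and a green fluorescent protein, and controls were Ltbr fl/fl littermates without Cre. Control neutrophils gave 3 unstimulated and 4 stimulated libraries, and LTβRΔN neutrophils gave 4 unstimulated and 5 stimulated libraries. The treatment protocol describes 2 h of exposure to 3 cytokines linked to colitis, TNF and GM-CSF (both 100 ng/ml) as well as IL-6 (50 ng/ml), to which the LTβR ligand LIGHT (500 ng/ml) was or was not added, whereas the series' design text speaks of cytokines being present or absent. No label says which of these agents a given library received, so the groups are named here by their treatment labels alone. No label says that libraries of a group came from separate animals, so p-values measure the spread between these libraries, which may be technical.

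Total counts ran from 1094335 to 11932653 per library. Ltbr, the targeted gene, was at 116 ± 33.0 CPM (counts relative to the scaled library size, mean ± SD) in unstimulated and 109 ± 27.7 CPM in stimulated control neutrophils, and at 8.22 ± 3.14 and 8.65 ± 6.75 CPM in the matching LTβRΔN groups. Neutrophil markers summed to between 44000 and 74700 CPM in every library. All 6 of the 7 listed that are in the table were detected (Ly6g was not analysed here). Cxcr2, which is also a member, is among these markers and was at 1050 to 1600 CPM. The monocyte markers summed to 341 to 561 CPM, nearly all of it from Csf1r and Ly6c2, while Ccr2 had 9 counts over the 16 libraries, Cx3cr1 had 2 and Fn1 had 0. The eosinophil sum reached at most 11.3 CPM with Epx, Prg2 and Ear1 at 0, the B cell sum at most 1.6 CPM and the mast cell or basophil sum at most 0.793 CPM. The T or NK cell sum reached at most 16.4 CPM, the erythroid sum 5.95 CPM and the dendritic cell sum 5.88 CPM. The stimulated control library numbered 82 stood apart, with platelet markers at 202 CPM and immature neutrophil markers at 764 CPM against at most 23.2 and 230 CPM in the libraries of the other groups. Library titles also carry an index, S520 or S521. It was S521 in all 9 stimulated libraries and S520 in all 4 unstimulated LTβRΔN libraries, while the unstimulated control libraries were divided, 2 with S520 and 1 with S521. In LTβRΔN neutrophils, the index and the treatment label therefore cannot be told apart.

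To see whether the receptors that were higher shared sequence in front of their genes, the 250 bases before the annotated start were read for all 10 members from RefSeq (GRCm38.p6, the build the counts were made on under its other name mm10). The 4 sequences below are those of the receptors that passed the test with the treatment label. Each is written 5′ to 3′ on the strand of its gene, and capitals mark the matched motif.
Ccrl2, chr9:111057519-111057768, minus strand: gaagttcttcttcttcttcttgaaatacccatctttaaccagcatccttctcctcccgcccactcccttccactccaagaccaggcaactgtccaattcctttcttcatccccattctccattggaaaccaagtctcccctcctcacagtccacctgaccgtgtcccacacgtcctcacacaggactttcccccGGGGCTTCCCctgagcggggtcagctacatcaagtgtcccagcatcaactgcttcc
Ccr1, chr9:123968693-123968942, minus strand: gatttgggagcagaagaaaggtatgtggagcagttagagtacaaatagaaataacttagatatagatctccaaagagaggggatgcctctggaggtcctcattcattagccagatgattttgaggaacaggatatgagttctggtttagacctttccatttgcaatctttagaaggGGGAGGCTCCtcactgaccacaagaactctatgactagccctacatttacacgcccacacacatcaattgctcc
Fpr2, chr17:17887574-17887823, plus strand: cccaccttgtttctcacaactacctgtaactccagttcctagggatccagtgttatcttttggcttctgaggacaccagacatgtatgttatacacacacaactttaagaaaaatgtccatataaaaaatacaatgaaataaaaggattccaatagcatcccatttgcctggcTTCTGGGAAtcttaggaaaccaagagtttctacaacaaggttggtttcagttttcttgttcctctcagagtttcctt
Ptafr, chr4:132563817-132564066, plus strand: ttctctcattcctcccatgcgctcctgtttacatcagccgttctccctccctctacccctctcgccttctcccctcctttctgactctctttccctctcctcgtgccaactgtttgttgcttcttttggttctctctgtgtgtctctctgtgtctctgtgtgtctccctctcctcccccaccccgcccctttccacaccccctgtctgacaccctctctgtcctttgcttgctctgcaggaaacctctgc

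The motifs searched were 3, on both strands of the 300 bases from 250 before to 50 after each start. The NF-kB consensus lay at bases -56 to -47 of Ccrl2 and at bases -74 to -65 of Ccr1, counted from the start, and in no other member. It occurred in 8.46% of the 32851 promoter windows in the RefSeq set. The Ccrl2 match was upstream of the outermost of 3 annotated starts. The STAT motif TTCNNNGAA lay at bases -77 to -69 of Fpr2, against 8.3% of all windows, and the AP-1 motif TGANTCA at bases -22 to -16 of C3ar1, against 7.81% of all windows. The matched letters do not overlap another of these motifs. Ptafr held none of the 3, and the same was true of Cxcr2, Cxcr4, Fpr1, C5ar1 and Ltb4r1. A match is a description of letters in a window and no binding was measured here.

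Levels between genes were compared as CPM per kb of exon, a scale that divides by gene length. In unstimulated control neutrophils the highest were C5ar1 (592 ± 56.0 CPM per kb, SD, n = 3), Ccr1 (550 ± 92.0), Cxcr2 (509 ± 13.4) and Fpr1 (470 ± 18.1). The range of Ccr1 overlapped those of the other three, while C5ar1, Cxcr2 and Fpr1 did not overlap one another. Ccrl2 followed at 158 ± 52.5 CPM per kb, then Ptafr (83.0 ± 12.7) and Ltb4r1 (82.0 ± 7.68), whose ranges overlapped, and then Fpr2 (52.4 ± 8.96) and Cxcr4 (50.4 ± 5.73), whose ranges also overlapped. C3ar1 had no count in this group.

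In stimulated control neutrophils the order was led by Ccr1 at 1214 ± 88.9 CPM per kb (SD, n = 4) and Ccrl2 at 905 ± 77.3 CPM per kb, and these did not overlap. C5ar1 (712 ± 80.0) and Fpr1 (639 ± 124) came next with overlapping ranges, followed by Cxcr2 (417 ± 55.9), Ptafr (216 ± 36), Fpr2 (104 ± 27.9), Ltb4r1 (68.1 ± 8.14) and Cxcr4 (39.1 ± 7.69), of which Fpr2 and Ltb4r1 overlapped. In LTβRΔN neutrophils C5ar1 and Ccr1 both had a mean of 617 CPM per kb unstimulated, ahead of Fpr1 (489), Cxcr2 (410) and Ccrl2 (201), and Ltb4r1 (91.0), Ptafr (79.0), Fpr2 (50.3) and Cxcr4 (49.7) were lower. After Ccr1 (1287) in stimulated LTβRΔN neutrophils came Ccrl2 (802), C5ar1 (653) and Fpr1 (623), neighbours that overlapped, then Cxcr2 (383), Ptafr (196), Fpr2 (99.8), Ltb4r1 (80.7) and Cxcr4 (40.9). Ccrl2 made up 6.22% of the summed CPM per kb of the members in unstimulated and 21% in stimulated control neutrophils, and 7.73% and 19.3% in LTβRΔN neutrophils. The share of Cxcr2 was 20% and 9.67% in the control groups and 15.8% and 9.19% in the LTβRΔN groups. These shares are of a sum in which the level of each member enters, so a share can fall while a level does not.

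**Figure D1:**
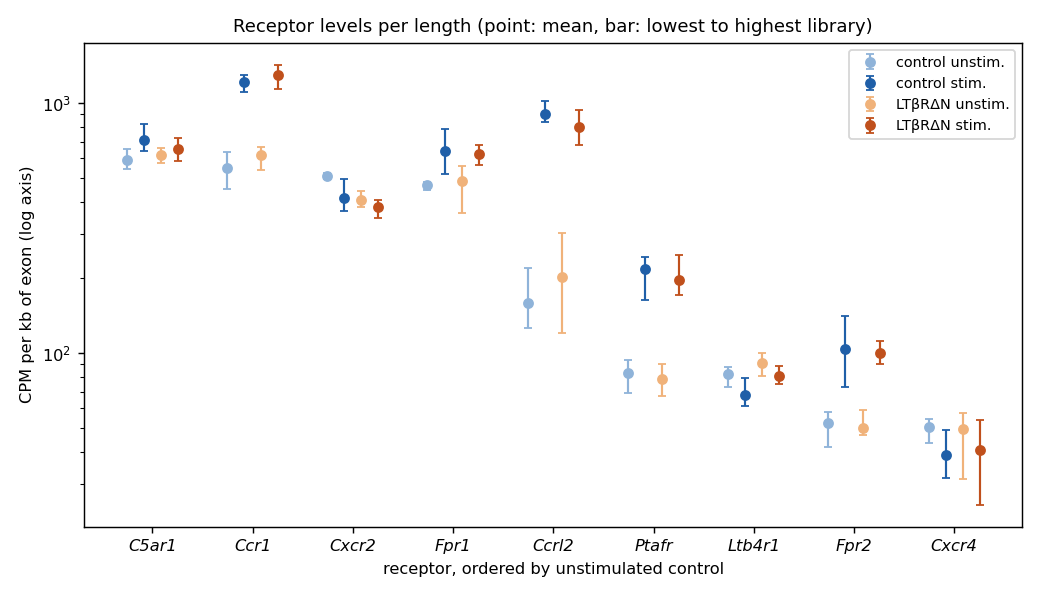
CPM per kb of exon (log axis) for the 9 members tested, ordered by their mean in unstimulated control neutrophils, with 1 point per group at the mean and a bar from the lowest to the highest library. Ccr1 and Ccrl2 lead in both stimulated groups, at 1214 and 905 CPM per kb in control and 1287 and 802 CPM per kb in LTβRΔN neutrophils.

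Comparing stimulated with unstimulated libraries within a genotype asks which receptor transcripts differ with the treatment label. Of the 9 members tested, 4 were higher and 0 lower in control neutrophils (edgeR quasi-likelihood test, Benjamini-Hochberg adjusted over 9213 genes, adjusted p below 0.05). Over all genes tested, 2.82% were higher and 0.662% lower. In LTβRΔN neutrophils 4 members were higher and 0 lower, against 2.98% and 0.749% of all genes. The members called were the same 4, Ccrl2, Ptafr, Ccr1 and Fpr2. Because the members were chosen with earlier results of these data known, the comparison with all genes is a description. The median log2 fold change of the members was 0.44 in control and 0.34 in LTβRΔN neutrophils, against -0.02 and -0.03 over all genes. The stimulated and unstimulated libraries did not overlap in CPM for 6 members in control neutrophils, where 12.7% of all genes did not, and for 5 members in LTβRΔN neutrophils, where 7.28% did not.

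The 4 receptors that were higher kept that call in control neutrophils without the library numbered 82, which gave log2 fold changes of 2.46 for Ccrl2, 1.34 for Ptafr, 1.12 for Ccr1 and 0.99 for Fpr2. With the library index as a covariate, 3 of the 4 kept it in control neutrophils, Fpr2 being the exception (log2 fold change 0.86, edgeR adjusted p = 0.328), and 0 of the 4 in LTβRΔN neutrophils. That fit takes the index effect from the control libraries, of which a single unstimulated one, numbered 73, has S521.

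Ccrl2 binds the attractant chemerin and presents it to other cells, with no known G protein signalling of its own. In unstimulated control neutrophils Ccrl2 was at 337, 329 and 569 CPM, and in stimulated control neutrophils at 2261, 2179, 2638 and 2323 CPM. In LTβRΔN neutrophils it was at 785, 311, 469 and 527 CPM unstimulated and at 2165, 2233, 2439, 1766 and 1821 CPM stimulated. Every stimulated library lay above every unstimulated library. The log2 fold change was 2.52 (SE 0.237, 95% interval 2.02 to 3.01, edgeR adjusted p = 7.49e-08) in control and 1.99 (SE 0.203, 95% interval 1.57 to 2.41, edgeR adjusted p = 2.26e-07) in LTβRΔN neutrophils. The difference between the genotypes in this change was -0.53 on the log2 scale (95% interval -1.13 to 0.07), with an unadjusted p of 0.0826 from the edgeR fit and an adjusted p of 0.9999, so it was not resolved. Unstimulated Ccrl2 had the widest relative spread of the called members in either unstimulated group, with a coefficient of variation of 33.1% in control and 37.7% in LTβRΔN neutrophils. Within index S521, the single unstimulated control library was at 569 CPM and the stimulated control libraries at 2179 to 2638 CPM. With the index as a covariate, the LTβRΔN log2 fold change was 1.22 (edgeR adjusted p = 0.218). Ccrl2 lies on the minus strand of chr9:111054486-111057519 (GRCm38) in 3 exon blocks that add up to 2598 bases.

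Ccr1, the receptor for CCL3, CCL5 and related inflammatory chemokines, had the highest mean per kb of the members in both stimulated groups. In control neutrophils it was at 1583, 1285 and 1804 CPM unstimulated and at 3128, 3341, 3632 and 3655 CPM stimulated. Its LTβRΔN values were 1780, 1527, 1787 and 1895 CPM unstimulated and 3776, 3745, 3208, 3476 and 4026 CPM stimulated. The lowest stimulated library of either genotype lay well above the highest unstimulated library. The log2 fold change was 1.14 (SE 0.124, edgeR adjusted p = 6.44e-07) in control and 1.06 (SE 0.109, edgeR adjusted p = 2.47e-07) in LTβRΔN neutrophils, a difference between genotypes of -0.08 (95% interval -0.42 to 0.25). Within index S521 the unstimulated control library was at 1804 CPM, against 3128 to 3655 CPM in the stimulated control libraries. With the index as a covariate, the LTβRΔN value was 0.73 (edgeR adjusted p = 0.169). The gene lies on the minus strand of chr9:123962124-123968692, in 2 exon blocks of 2833 bases.

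Cxcr2, which binds CXCL1, CXCL2 and CXCL3 and drives neutrophil exit from marrow, did not pass the threshold with the treatment label. It was at 1519, 1596 and 1536 CPM in unstimulated control neutrophils and at 1129, 1183, 1258 and 1514 CPM in stimulated ones. All stimulated control libraries lay below all unstimulated ones, the highest of them, at 1514 CPM, coming close to the lowest unstimulated library, at 1519 CPM. The log2 fold change was -0.29 (SE 0.113, 95% interval -0.52 to -0.05, edgeR adjusted p = 0.264). Without scaling factors, by library totals only, it was -0.54 and passed (edgeR adjusted p = 0.00558), while the median of all genes then stood at -0.27. In LTβRΔN neutrophils Cxcr2 was at 1166, 1352, 1224 and 1259 CPM unstimulated and at 1124, 1241, 1055, 1246 and 1170 CPM stimulated, and these groups overlapped, with a log2 fold change of -0.10 (SE 0.0999, 95% interval -0.31 to 0.11).

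Cxcr4, the CXCL12 receptor that holds neutrophils in marrow, had the lowest mean per kb of the tested members in all 4 groups. It was at 98.3, 79.2 and 95.6 CPM in unstimulated and at 89.2, 72.8, 57.2 and 63.6 CPM in stimulated control neutrophils. The LTβRΔN libraries held 104, 56.8, 98.2 and 101 CPM unstimulated and 61.7, 44.7, 89.5, 76.8 and 97.2 CPM stimulated. The groups overlapped in both genotypes. The log2 fold change was -0.37 (95% interval -0.87 to 0.14, edgeR adjusted p = 0.682) in control and -0.31 (95% interval -0.76 to 0.15, edgeR adjusted p = 0.665) in LTβRΔN neutrophils, so falls of that size could not be told from no difference at this spread. The log2 ratio of Cxcr4 to Cxcr2 counts within a library, which no scaling touches, was -4.10 ± 0.207 and -4.18 ± 0.419 in unstimulated and stimulated control neutrophils and -3.84 ± 0.495 and -4.03 ± 0.507 in LTβRΔN neutrophils (mean ± SD). These groups overlapped. Among their ligands, Cxcl12 had 0 counts in the 16 libraries.

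Fpr2 senses formyl peptides of lower affinity, serum amyloid A and annexin A1. In control neutrophils it was at 75.6, 54.6 and 73.7 CPM unstimulated and at 182, 128, 132 and 94.4 CPM stimulated. LTβRΔN neutrophils had 76.4, 61.6, 62.0 and 61.0 CPM unstimulated and 145, 125, 123, 117 and 137 CPM stimulated. The groups did not overlap, although the stimulated control libraries were spread widely. The log2 fold change was 0.98 (SE 0.200, edgeR adjusted p = 0.00311) in control and 0.98 (SE 0.179, edgeR adjusted p = 8.52e-04) in LTβRΔN neutrophils, with a difference of 0.003 between them (95% interval -0.54 to 0.55). In control neutrophils the call was lost without the unstimulated library numbered 72 (0.84, edgeR adjusted p = 0.0529). In LTβRΔN neutrophils it was lost with the index as a covariate (0.81, edgeR adjusted p = 0.929). Within index S521 the unstimulated control library was at 73.7 CPM and the stimulated control libraries at 94.4 to 182 CPM. Of the 1295 stretches of 36 bases in the Fpr2 exons, 12.3% also occur in Fpr1 or Fpr3, and 48 of its exon bases overlap Fpr3 on the same strand. A share of its reads may therefore not point to Fpr2 alone, and how such reads were counted was not tested. Fpr3 itself had 2 counts in all.

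Fpr1, the high-affinity receptor for bacterial formyl peptides, lies beside Fpr2 on chromosome 17 in the opposite orientation, Fpr1 at chr17:17876471-17883940 on the minus strand and Fpr2 at chr17:17887824-17893952 on the plus strand. Fpr1 was at 637, 595 and 636 CPM in unstimulated and at 736, 924, 1038 and 687 CPM in stimulated control neutrophils. The LTβRΔN values were 661, 480, 737 and 712 CPM unstimulated and 789, 750, 897, 899 and 789 CPM stimulated. The stimulated libraries were all above the unstimulated ones in each genotype, yet the change did not pass the adjusted threshold. Its log2 fold change was 0.44 (SE 0.152, edgeR adjusted p = 0.152) in control and 0.34 (SE 0.133, edgeR adjusted p = 0.217) in LTβRΔN neutrophils. The log2 ratio of Fpr2 to Fpr1 counts within a library was -3.21 ± 0.205 unstimulated and -2.68 ± 0.445 stimulated in control neutrophils, and -3.30 ± 0.307 and -2.67 ± 0.219 in LTβRΔN neutrophils. Stimulated and unstimulated libraries did not overlap in this ratio in either genotype, by narrow margins. The highest unstimulated and the lowest stimulated library were at -3.07 and -2.98 in control and at -2.96 and -2.94 in LTβRΔN neutrophils.

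**Figure D2:**
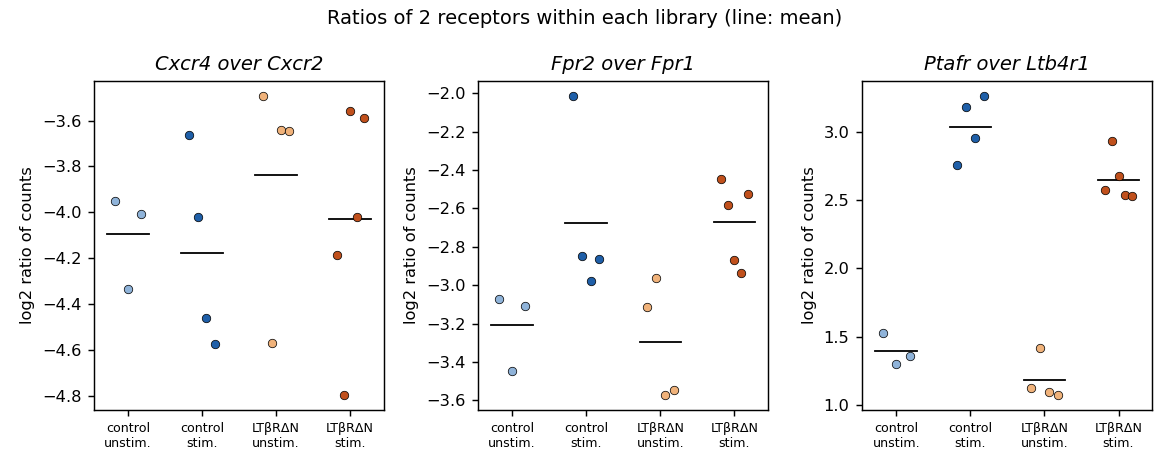
Log2 ratios of counts of 2 receptors within each library (1 point per library, line at the group mean) for Cxcr4 over Cxcr2, Fpr2 over Fpr1 and Ptafr over Ltb4r1, in the 4 groups. Ptafr over Ltb4r1 separates stimulated from unstimulated libraries in both genotypes, while Cxcr4 over Cxcr2 does not.

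C5ar1, the receptor for the complement fragment C5a, had the highest mean per kb in unstimulated control neutrophils and did not pass the threshold with the treatment label. It was at 1680, 1399 and 1484 CPM in unstimulated and at 1655, 1826, 2118 and 1716 CPM in stimulated control neutrophils. In LTβRΔN neutrophils it was at 1473, 1698, 1619 and 1553 CPM unstimulated and at 1570, 1855, 1819, 1511 and 1638 CPM stimulated. The groups overlapped in both genotypes, with log2 fold changes of 0.27 (95% interval 0.03 to 0.51, edgeR adjusted p = 0.352) and 0.08 (95% interval -0.13 to 0.29, edgeR adjusted p = 0.849). C3ar1, the receptor for C3a, had 29 counts in the 16 libraries, namely 10 in the unstimulated LTβRΔN library numbered 70, 4 in the stimulated LTβRΔN library numbered 77 and 15 in the stimulated control library numbered 82. In the other 13 libraries it had 0 counts, which allows up to 0.228 to 2.4 CPM depending on the library (3 counts, counting error only). It failed the count filter and was not tested, and no fold is given.

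Ptafr, the receptor for platelet activating factor, a lipid made by activated leukocytes and endothelium, was at 342, 251 and 313 CPM in unstimulated and at 594, 878, 856 and 820 CPM in stimulated control neutrophils. Values in LTβRΔN neutrophils were 245, 327, 297 and 281 CPM unstimulated and 624, 893, 701, 721.1 and 625 CPM stimulated. The lowest stimulated library was far above the highest unstimulated library in each genotype. The log2 fold change was 1.38 (SE 0.163, edgeR adjusted p = 2.16e-06) in control and 1.32 (SE 0.143, edgeR adjusted p = 6.54e-07) in LTβRΔN neutrophils, a difference of -0.07 (95% interval -0.50 to 0.37). Within index S521 the unstimulated control library was at 313 CPM and the stimulated control libraries at 594 to 878 CPM. With the index as a covariate the LTβRΔN value was 1.24 (edgeR adjusted p = 0.0573). The stimulated control library numbered 82, with the high platelet marker sum, had 856 CPM of Ptafr, against 594, 878 and 820 CPM in the others of its group, and without it the control log2 fold change was 1.34 (edgeR adjusted p = 1.21e-05).

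Ltb4r1, the high-affinity receptor for leukotriene B4, another lipid attractant, did not pass the threshold. It was at 119, 102 and 122 CPM in unstimulated and at 87.7, 96.6, 110 and 85.2 CPM in stimulated control neutrophils. In LTβRΔN neutrophils it was at 112, 123, 139 and 134 CPM unstimulated and at 105, 117, 109, 124 and 108 CPM stimulated. The groups overlapped, with log2 fold changes of -0.27 (95% interval -0.59 to 0.05, edgeR adjusted p = 0.581) and -0.17 (95% interval -0.46 to 0.11, edgeR adjusted p = 0.719). The log2 ratio of Ptafr to Ltb4r1 counts, a pair chosen after their values were seen, was 1.39 ± 0.119 unstimulated and 3.04 ± 0.229 stimulated in control neutrophils, and 1.18 ± 0.163 and 2.65 ± 0.168 in LTβRΔN neutrophils. No stimulated library overlapped an unstimulated one in it.

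**Figure D3:**
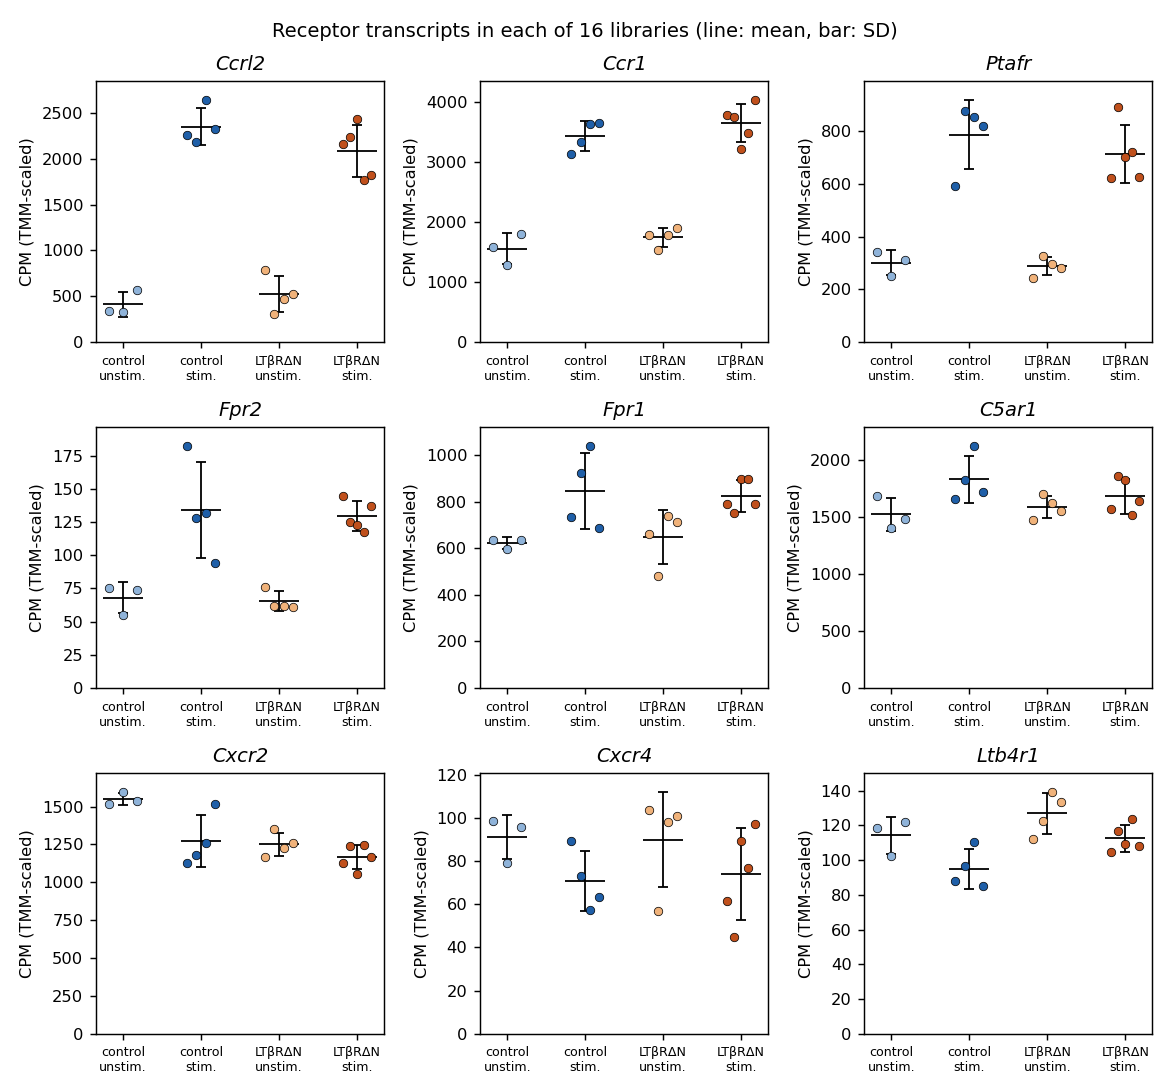
CPM of the 9 tested members in each of the 16 libraries (points), with the mean (line) and SD (bar) of each group, on axes that start at 0. Ccrl2, Ccr1, Ptafr and Fpr2, and also Fpr1, which did not pass the test, show stimulated libraries above all unstimulated libraries of the same genotype. In control neutrophils Ccrl2 was at 2179 to 2638 CPM stimulated against 329 to 569 CPM unstimulated.

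**Figure D4:**
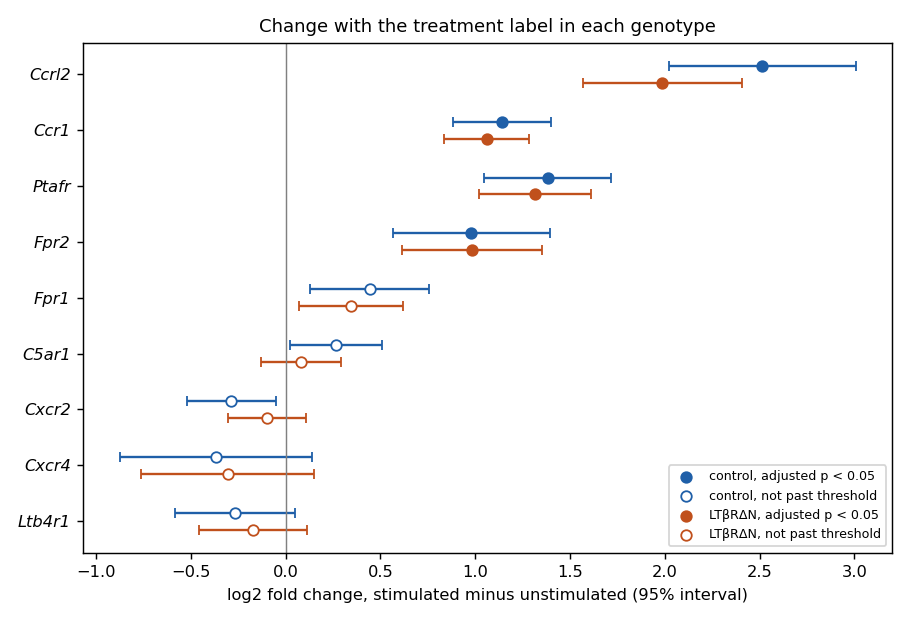
Log2 fold change of stimulated over unstimulated libraries for 9 members in control (n = 4 against 3) and LTβRΔN (n = 5 against 4) neutrophils, with 95% intervals from the edgeR fit. Filled points passed an adjusted p of 0.05 and open points did not, and Ccrl2 has the largest values, 2.52 and 1.99.

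In bulk libraries, fewer cells of a type and less RNA per cell cannot be told apart, which bears on every level given here. The genes whose log2 CPM varied most like a member over the 16 libraries were Cxcl2 (Pearson r = 0.99), Socs3 and Csrnp1 (both 0.987) for Ccrl2, Tlr2 (0.989), Socs3 (0.984) and Cd14 (0.983) for Ccr1, and Il1rn (0.979), Myd88 (0.975) and Ccng2 (0.975) for Ptafr. The points are libraries in separate treatment groups, which alone can give high values, so these are a description.

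Comparing LTβRΔN with control neutrophils under one treatment label asks whether receptor transcripts differ between the genotypes. The controls also lacked the transgene for Cre and the green fluorescent protein, so loss of Ltbr and the transgene cannot be told apart. In stimulated neutrophils 0 of the 9 members passed the test, against 0.0217% of all genes, 0 had an unadjusted edgeR p below 0.05 (6.41% of all genes did), and DESeq2 also called 0. The groups overlapped for all 9, where 1.31% of all genes did not overlap. The log2 differences ran from -0.17 for Ccrl2 to 0.25 for Ltb4r1. The 95% intervals were -0.57 to 0.22 for Ccrl2, -0.04 to 0.53 for Ltb4r1, -0.43 to 0.14 for Ptafr and -0.14 to 0.30 for Ccr1, so differences of the size seen with the treatment label in Ccrl2, Ccr1 and Ptafr lay outside them.

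In unstimulated neutrophils 0 members passed, against 0.0217% of all genes, and DESeq2 again called 0. One member, Cxcr2, had an unadjusted edgeR p below 0.05, as did 2.8% of all genes, and was also the single member whose groups did not overlap, where 5.71% of all genes did not. It was at 1519 to 1596 CPM in the 3 control libraries and at 1166 to 1352 CPM in the 4 LTβRΔN libraries. Within index S520 the control libraries were at 1519 and 1596 CPM, against the same 4 LTβRΔN libraries. The log2 difference was -0.31 (SE 0.113, 95% interval -0.55 to -0.08), with an unadjusted p of 0.0117 and an adjusted p of 1 in the edgeR fit. The other log2 differences ran from -0.07 for Ptafr to 0.35 for Ccrl2, whose interval was -0.10 to 0.81. For the change with treatment compared between genotypes, 0 of 9 members passed (edgeR, 0% of all genes), 0 had an unadjusted p below 0.05 (3.71% of all genes did), and DESeq2 called 0.

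**Figure D5:**
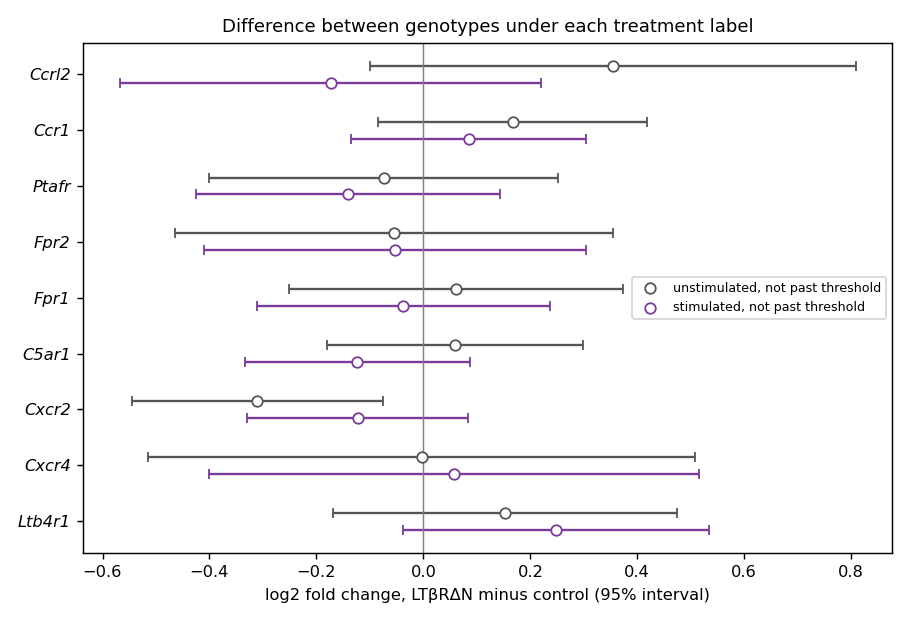
Log2 difference of LTβRΔN minus control neutrophils in unstimulated (n = 4 against 3) and stimulated (n = 5 against 4) libraries for 9 members, with 95% intervals from the edgeR fit. All points are open, none passing an adjusted p of 0.05, and the interval of Cxcr2 in unstimulated neutrophils, -0.55 to -0.08, is the one that does not reach 0.

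Genes around the receptors were counted from lists chosen with earlier results of these data known. Their calls are from the fit without the library index, which in LTβRΔN neutrophils cannot be told apart from the treatment label. Over all genes tested, 2.82% passed as higher and 0.662% as lower in control neutrophils, and 2.98% and 0.749% in LTβRΔN neutrophils. Of 13 other chemoattractant receptors tested out of 44 listed, 2 were higher in both genotypes. Ffar2, a receptor for short-chain fatty acids, went from 1.5 to 269 CPM in control and from 3.45 to 285 CPM in LTβRΔN neutrophils (edgeR adjusted p = 2.68e-11 and 1.63e-11). Gpr84, a receptor for medium-chain fatty acids, went from 2.3 to 142 CPM and from 3.79 to 130 CPM (edgeR adjusted p = 1.40e-07 and 1.50e-07). Gpr35 was lower in LTβRΔN neutrophils, with a log2 fold change of -1.27 (edgeR adjusted p = 0.00246), and was -0.77 in control neutrophils (edgeR adjusted p = 0.191). That the genotypes differ in this was not shown by the test of the difference, which called no gene.

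Of 23 ligands and ligand-making enzymes tested out of 32, 3 were higher in control and 4 in LTβRΔN neutrophils, and 0 were lower in either. Cxcl2 and Cxcl3, ligands of Cxcr2, had log2 fold changes of 4.33 and 5.03 in control and 3.96 and 4.66 in LTβRΔN neutrophils (edgeR adjusted p from 1.52e-12 to 2.65e-07). Saa3, a serum amyloid A gene, was at 0.0631 CPM unstimulated and 36.5 CPM stimulated in control neutrophils and at 0.341 and 24.5 CPM in LTβRΔN neutrophils. Cxcl1, a further Cxcr2 ligand, was at 0.989 and 7.57 CPM in control neutrophils (edgeR adjusted p = 0.348). Its LTβRΔN values were 0.234 and 9.67 CPM (edgeR adjusted p = 0.0302). The test of the difference called no gene, so a difference between the genotypes in Cxcl1 was not shown.

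Downstream of the receptors, 0 of 33 G protein signalling genes tested passed in either genotype (edgeR), a count near the share of all genes that passed. Of the 33, 3 and 7 had an unadjusted edgeR p below 0.05 in control and LTβRΔN neutrophils, where 11.4% and 13% of all genes did. Of 19 desensitisation and endocytosis genes tested, 1 was higher and 2 were lower in each genotype. Adrbk1, which encodes the receptor kinase GRK2, had log2 fold changes of 1.12 and 0.81 (edgeR adjusted p = 0.00551 and 0.0274), and the arrestin-domain genes Arrdc3 (-1.40 and -1.18) and Txnip (-1.19 and -1.10) fell (edgeR adjusted p from 3.07e-05 to 3.22e-04). Of 7 RGS genes tested, whose proteins shorten G protein signals, Rgs1 (-3.40 and -2.60) and Rgs2 (-1.47 and -1.24) fell in both genotypes and 0 rose (edgeR adjusted p from 1.78e-04 to 0.0131).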

How the data were processed

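Gene counts were deposited as 1 table of whole-number counts per gene and library, which the authors made from single-end HiSeq2500 reads. Per the labels' processing notes, the tools were Bowtie 1.0.0, TopHat 1.4.1 and HTSeq 0.7.1 with build mm10; the setting for strand is not given in the sources used here, and libraries that failed quality control were dropped before deposit. All 16 columns were used, and 0 columns lacked a sample.

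Counts were tested with edgeR 4.0.16 in R 4.3.3: filterByExpr (minimum count 10, minimum total 15) kept 9213 of 23337 genes, TMM scaling was applied, and quasi-likelihood tests were run in 1 model with 1 coefficient per group over 16 libraries, since all groups then share an estimate of the spread. P-values were adjusted by Benjamini-Hochberg over the 9213 genes. CPM used the TMM-scaled library sizes, and log2 CPM a prior count of 2. CPM per kb used union exon lengths of GENCODE M21. Depth ran from 1094335 to 11932653 counts. The script was tested on simulated data. The 25 pairs of libraries within groups differed by 7.12 to 50.4 in chi-square per degree of freedom, so none was counted as a duplicate. Alternatives were DESeq2 1.42.0, other scalings and filters, the library index or a replicate block as a term, fewer groups in the fit, and leaving out each library. The members, gene lists and tests were chosen with earlier results of these data known. Genes from the lists were named when they passed in either treatment comparison, at most 6 per list; for the 3 members with the smallest adjusted p in control neutrophils, the 3 most correlated genes were named. Figures were drawn with matplotlib.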

Additional observations from a re-analysis of the deposited data

Results flagged for a closer look

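Within each group of 4 or 5 libraries, the highest and lowest log2 CPM of each member was compared with the nearest other value by Dixon's test. Chance flags about 1 in 20 groups. Without C3ar1, 27 groups were examined, about 1.35 of which would stand apart by chance, and 2 did. Cxcr4 was at 56.8 CPM in the unstimulated LTβRΔN library numbered 68, the one with the lowest total count, against 98.2 to 104 CPM in the other 3. Fpr2 was at 76.4 CPM in the unstimulated LTβRΔN library numbered 67, against 61 to 62 CPM in the other 3. C3ar1 gave 3 more, where a single library with any count stands apart by construction because the others are at 0. It was at 1.49 CPM in the stimulated control library numbered 82, at 0.851 CPM in the unstimulated LTβRΔN library numbered 70 and at 2.82 CPM in the stimulated LTβRΔN library numbered 77, against 0 in the other libraries of each group. No reason for these values was tested.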

How the results depend on the processing

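The members called with the treatment label stayed at 4 in both genotypes, except for 3 in control neutrophils with the library index as a covariate or without the unstimulated library numbered 72, 5 there by library totals only, and the LTβRΔN value below, and 0 were called between genotypes or for the interaction under any. With the library index as a covariate, the members called in LTβRΔN neutrophils moved to 0, and calls over all genes fell from 321 to 157 in control and from 344 to 79 in LTβRΔN neutrophils. The log2 fold changes there were 1.22 for Ccrl2 (1.99 without the covariate), 1.24 for Ptafr (1.32), 0.73 for Ccr1 (1.06) and 0.81 for Fpr2 (0.98). Because the index coincides with the treatment label in LTβRΔN neutrophils, this fit takes the index effect from the control libraries. There the library numbered 73 is the 1 unstimulated library with S521. In the lost calls and the lower values, the index and the treatment label therefore cannot be told apart. By library totals only, 201 genes were higher and 272 lower in control neutrophils, against 260 and 61 with TMM, and 216 and 293 against 275 and 69 in LTβRΔN neutrophils, with the median of all genes at -0.27 and -0.21. DESeq2 called 14 genes between genotypes in stimulated neutrophils against 2. Directions turned on values near 0 for members that were not called. C5ar1 with treatment in LTβRΔN neutrophils was -0.11 by library totals. Cxcr4 between genotypes in unstimulated neutrophils was 0.0056 with DESeq2 size factors, 0.0035 by upper-quartile scaling, 0.0324 with the index, 0.0106 with the groups compared alone and 0.0050 by DESeq2's Wald test. Fpr2 there was 0.0052 with the index, and in the interaction -0.0018 with every gene of at least 1 count and -0.0582 with the index. Leaving out each library gave ranges between genotypes in stimulated neutrophils of -0.0679 to 0.204 for Cxcr4, -0.126 to 0.0757 for Fpr1 and -0.189 to 0.131 for Fpr2, in unstimulated neutrophils of -0.0942 to 0.152 for Cxcr4, -0.00624 to 0.180 for Fpr1, -0.191 to 0.0266 for Fpr2 and -0.192 to 0.0226 for Ptafr, and in the interaction of -0.0892 to 0.207 for Cxcr4, -0.200 to 0.0429 for Ccr1, -0.211 to 0.0148 for Fpr1, -0.134 to 0.186 for Fpr2 and -0.181 to 0.0538 for Ptafr.

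Column names carry a number that 7 unstimulated and stimulated libraries of a genotype share, and what it marks is not stated. Deviations from group means correlated at 0.0214 to 0.0694 over the 7 pairs, 0 above 0.1, and 6 of 7 libraries matched their own number best, a hint from the data. With the number as a replicate block, 4 members were called in each genotype and 324 and 343 genes over all, and the interaction was -0.12 for Cxcr4, 0.0598 for Fpr1 and 0.0176 for Ptafr. The genotype comparisons could not be fitted with the block.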
